A study of Mus musculus with 6 samples.

Results

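Transcripts of 10 receptors through which growth factors and cytokines act on myeloid cells were compared between mouse bone marrow monocytes (BMDM) and brainstem microglia (BSM). The 10 genes were Csf1r, Csf2ra, Csf2rb, Csf3r, Il10ra, Il10rb, Il6ra, Il6st, Ifngr1 and Il4ra. They were chosen by name, with earlier results of these data known. Each of the 10 had a row among the 35237 genes of the FPKM table and among the 36536 genes of the ALEXA-Seq table. Both cell types were FACS-sorted without culture from C57BL/6 mice at 6 weeks of age. The study's methods name a CD115 gate for BMDM only. By its results text BMDM were the CD11b+ CD45high CD115+ Ly6G- cells of bone marrow, and BSM were the CD11b+ CD45low CD115low Ly6G- cells of the brainstem. There were 3 libraries of each, each from cells pooled over a set of mice, and the sources used here do not say whether BMDM and BSM libraries of the same number came from the same mice. By the labels, the mice of replicate 1 were male for both cell types and those of replicates 2 and 3 female, whereas the study's text speaks of male mice. The RNA was amplified before sequencing, and the reads carried no strand information.

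Most of these receptors work as complexes. CSF1R, the receptor of CSF1 and IL-34, is a tyrosine kinase on which microglia depend for survival. The receptors of GM-CSF, G-CSF, IL-10, IL-6, interferon-gamma and IL-4 have no kinase of their own and signal through JAK kinases that phosphorylate STAT factors, and several of them pair a ligand-binding chain with a chain that is shared between cytokines, such as the common beta chain (Csf2rb) or gp130 (Il6st).

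The sorted cells expressed their own markers. The 5 monocyte markers summed to between 440 and 466 FPKM in the BMDM libraries and to between 0.0393 and 0.460 in the BSM libraries, and the 6 microglia markers to between 10.7 and 11.6 in BMDM and 632 and 703 in BSM. FPKM are fragments scaled by the length of the transcript and the number of mapped reads, so levels of different genes can be set side by side. The reads behind each value are unknown. The sum of the FPKM over all genes was larger in the BMDM libraries, from 163198.7 to 194184.2, than in the BSM libraries, from 68287.8 to 75021.4. The tested genes had a median log2 fold change of 0.81 in favor of BMDM without further scaling, and of 0.02 after quantile normalization. BSM replicate 1 stood apart from the other libraries, with 11237 genes above 0 against between 14599 and 16977. The study's quality table gives this library the lowest RNA concentration and by far the lowest RNA integrity number of the 6. For the receptor genes, values that change their call with the scaling or with this library are given both ways.

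Of the receptor genes, 4 differed between the cell types. Csf2ra and Csf2rb, the 2 chains of the GM-CSF receptor, were higher in BMDM, and Csf1r and Il6st were higher in BSM. These were 4 of the 9 receptor genes that reached 3 FPKM in 1 or more libraries and were tested with limma on log2(FPKM + 1), at an adjusted p-value under 0.05. Il10rb, with at most 2.56 FPKM, was below this minimum. Csf2rb reached the minimum only in BMDM libraries, and Il10ra and Il4ra only in BSM libraries. Counts by direction that include these genes, here and below, are therefore not independent of the filter. Of all 6364 genes tested, 45.3% were called higher in BMDM and 9.22% higher in BSM, so 2 of 9 in each direction stand beside a background that leaned to BMDM. The median log2 fold change of the 9 receptor genes was -0.42, where a negative value stands for higher expression in BSM. In the same 4 genes the libraries of the cell types did not overlap, against 66.8% of all genes tested.

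**Figure D1:**
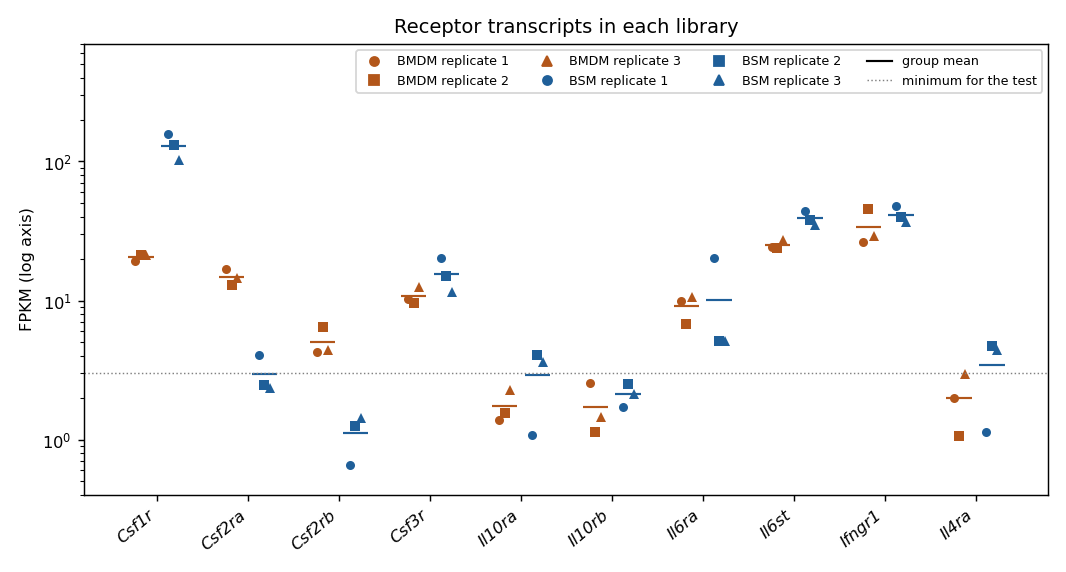
FPKM of the 10 receptor genes (log axis) in each of the 3 BMDM (orange) and 3 BSM (blue) libraries, with bars at the group means and a dotted line at the minimum of the test. Csf1r lay between 102 and 158 FPKM in BSM and near 20 in BMDM, Csf2ra and Csf2rb lay higher in every BMDM library, and the single high BSM value of Il6ra was that of replicate 1.

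Csf1r, on chromosome 18 from 61265226 to 61290791 (mm9, as are all positions here), was at 19.1, 21.3 and 21.2 FPKM in BMDM replicates 1, 2 and 3 and at 158, 131 and 102 FPKM in the BSM replicates. Every BSM library was far above every BMDM library, although the BMDM gate took cells positive for CD115, the protein of this gene. The study's results text describes the BSM as low for CD115, while its methods name no CD115 gate for them. The ratio of the mean FPKM was 6.33 in favor of BSM. Its log2 fold change of -2.58 had a standard error of 0.24 and an adjusted p of 0.000102 in limma, and it lay between -3.86 and -2.43 under the 16 alternative settings, all 16 of which called it. As at least the BMDM were sorted on CD115, the transcript is not independent of how the cells were chosen. In the GENCODE annotation 18.6% of the Csf1r transcript is shared with exons of Hmgxb3 on the opposite strand. A read from that part cannot by itself be told apart from a read of Hmgxb3.

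In BSM this 1 receptor made up between 50.0% and 53.6% of the FPKM summed over the 10 genes, and in BMDM between 16.3% and 16.8%. Csf1r ranked above the 99th percentile of the tested genes in each BSM library, from 99.03 to 99.3, and between 84.8 and 85.95 in BMDM. The summed level of the 10 genes was between 117 and 130 FPKM in BMDM and between 204 and 299 FPKM in BSM, and most of that difference was Csf1r itself.

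Csf2ra encodes the alpha chain of the GM-CSF receptor, which binds the ligand. Listed on chromosome 19 from 61300314 to 61304262, it was at 16.9, 13.0 and 14.4 FPKM in the BMDM libraries and at 4.06, 2.46 and 2.33 FPKM in the BSM libraries. The groups did not overlap, and the mean was 14.8 ± 1.94 FPKM (SD, n = 3) in BMDM against 2.95 ± 0.964 FPKM (SD, n = 3) in BSM, which is 5.01 times as much. In limma the log2 fold change of 2.02 had a standard error of 0.26 and an adjusted p of 0.000537. It stayed called under all 16 alternatives, with the smallest value, 0.90 (limma adjusted p = 0.0415), after every library was scaled to the same sum.

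Csf2rb encodes the common beta chain, the signalling chain shared by the receptors of GM-CSF, IL-3 and IL-5. On chromosome 15 from 78156450 to 78180465, it was at 4.29, 6.40 and 4.43 FPKM in the BMDM libraries and at 0.657, 1.25 and 1.42 in the BSM libraries. All 3 BMDM values were above all 3 BSM values, with means of 5.04 ± 1.18 (SD, n = 3) and 1.11 ± 0.401 (SD, n = 3) FPKM, a ratio of 4.54. A log2 fold change of 1.52 with a standard error of 0.27 followed, called at an adjusted p of 0.00268 in limma. After scaling to the same sum it was 0.62 and no longer called (limma adjusted p = 0.109).

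The mouse has a second beta chain gene, Csf2rb2, next to Csf2rb and on the opposite strand, and its product is used by IL-3. The coding sequences of the pair were identical at 2503 of 2628 aligned bases (95.2%), and 13.4% of windows of 100 bases were identical throughout. A read from such a window cannot by itself be assigned to either gene. The libraries were read from both ends of a fragment, and the other read was not considered here. The start of the coding sequence, with as many differences as the median window, and the window with the most differences are shown to let a reader see how little separates the genes. The sequences are from GENCODE M21 transcripts, 5′ to 3′ on the coding strand, with capitals at the bases that differ. The first pair covers coding bases 1 to 90 of both genes, with 3 differences, and the second covers bases 308 to 397 of Csf2rb and 311 to 400 of Csf2rb2, with 16 differences.
Csf2rb, bases 1 to 90: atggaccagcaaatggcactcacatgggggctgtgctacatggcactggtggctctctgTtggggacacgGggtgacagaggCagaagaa
Csf2rb2, bases 1 to 90: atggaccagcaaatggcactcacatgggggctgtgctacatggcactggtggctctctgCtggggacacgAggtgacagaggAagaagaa
Csf2rb, bases 308 to 397: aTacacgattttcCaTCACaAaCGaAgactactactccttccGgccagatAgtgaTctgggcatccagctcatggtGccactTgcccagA
Csf2rb2, bases 311 to 400: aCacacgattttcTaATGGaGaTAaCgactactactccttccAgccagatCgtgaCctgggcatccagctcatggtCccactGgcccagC

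Csf2rb2 had low values in both cell types, 0.689, 1.03 and 0.931 FPKM in BMDM and 0.686, 0.778 and 0.639 FPKM in BSM, and did not reach the minimum of the test. The groups overlapped, so what differed between the cell types was the value assigned to Csf2rb. When the values of the pair were summed as 1 gene, an alternative added after the data were seen, the log2 fold change was 1.29 (limma adjusted p = 0.00400). In each library the alpha chain transcript was above that of the beta chain: the ratio of Csf2ra to Csf2rb was between 2.02 and 3.86 in BMDM and between 1.60 and 5.49 in BSM. On the log2 scale the mean ratio differed by 0.20 between the cell types (two-sided exact permutation test, p = 0.8), and both chains together were lower in BSM. With 3 libraries against 3 this test cannot give a p-value under 0.1, and 7 ratios were tested in all.

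Csf3r, the receptor of G-CSF and best known for driving neutrophil production, was expressed in both cell types, and whether a difference was called depended on the scaling. On chromosome 4 from 125701794 to 125721684, it was at 10.2, 9.54 and 12.5 FPKM in the BMDM libraries and at 20.2, 15.1 and 11.5 FPKM in the BSM libraries. The lowest BSM library was below the highest BMDM library. The difference of -0.48 on the log2 scale was not called (95% interval -1.10 to 0.14, limma adjusted p = 0.162), so a difference in favor of BSM of up to 1.10 was within the interval. Without BSM replicate 1 it was -0.28 (limma adjusted p = 0.251), and after quantile normalization of all libraries -1.25 (limma adjusted p = 0.00602).

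Granulocyte and progenitor markers were detected almost only in BMDM. The 9 markers summed to between 60.4 and 348 FPKM in BMDM and to between 0 and 0.0714 in BSM, where 6 of the 9 were at 0 in every library, and 8 of the 9 were higher in every BMDM library than in any BSM library. Each of the 9 was highest in BMDM replicate 2, which held the lowest BMDM value of Csf3r by FPKM but the highest by ALEXA-Seq, where the BMDM libraries were at 109, 156 and 128 and the BSM libraries at 196, 195 and 144. The part of granulocyte transcripts in the BMDM values was not tested. The Csf3r value carries a further uncertainty, since 48% of its longest-coding GENCODE transcript matched transcripts of other genes at 95% identity or more, mostly AC105061.2, over 1518 bases at 96.8% identity. The ratio of Csf1r to Csf3r within a library was between 1.70 and 2.22 in BMDM and between 7.80 and 8.78 in BSM. This ratio does not move with the scaling of a library. It differed by -2.13 on the log2 scale without overlap, at the smallest p the exact permutation test allows (p = 0.1, adjusted over 7 ratios 0.233).

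Il6st encodes gp130, the signal-transducing chain used by IL-6, LIF, oncostatin M and IL-11. On chromosome 13 from 113254317 to 113297049, it was at 24.4, 23.9 and 27.4 FPKM in the BMDM libraries and at 44.2, 38.0 and 34.8 FPKM in the BSM libraries. The groups did not overlap, and the ratio of the means was 1.55 in favor of BSM. On the log2 scale the difference was -0.60 with a standard error of 0.21, and its adjusted p of 0.0437 in limma was close to the threshold. Leaving out any one of the libraries other than BSM replicate 1 brought the adjusted p to between 0.0725 and 0.107, and lowering the minimum to 1 brought it to 0.0550, and moderation without the trend also ended the call. In the ALEXA-Seq values the log2 fold change was -0.75 (limma adjusted p = 0.0155), and after quantile normalization of the FPKM it was -1.33 (limma adjusted p = 0.00168).

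Il6ra, the chain that binds IL-6, gave no such difference. On chromosome 3 from 89674041 to 89717081, it was at 9.98, 6.77 and 10.6 FPKM in BMDM and at 20.2, 5.14 and 5.15 FPKM in BSM. BSM replicate 1 alone lay above the BMDM libraries, and the other BSM libraries lay below all of them. With all libraries the log2 fold change was 0.10 (95% interval -1.03 to 1.24, limma adjusted p = 0.871). Without BSM replicate 1 it was 0.70 in favor of BMDM (limma adjusted p = 0.0346), and without that library and after quantile normalization -0.04 (limma adjusted p = 0.917). The ratio of Il6ra to Il6st was between 0.287 and 0.411 in BMDM, and in BSM it was 0.457 in replicate 1 and 0.138 and 0.150 in the others (exact permutation p = 0.4), so in every library gp130 was the more abundant transcript.

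Ifngr1, the ligand-binding chain of the interferon-gamma receptor, was the highest of the 10 genes in BMDM by its mean and the second in BSM. On chromosome 10 from 19311816 to 19330031, it was at 26.4, 45.4 and 29.2 FPKM in BMDM and at 47.6, 39.8 and 36.6 FPKM in BSM. BMDM replicate 2 reached the BSM range and the other BMDM libraries stayed below it. Between the cell types the log2 fold change was -0.32 (95% interval -0.94 to 0.30, limma adjusted p = 0.339), and -1.07 after quantile normalization (limma adjusted p = 0.00958).

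Its partner Ifngr2, the signalling chain, was lower in both cell types, at 4.12, 4.11 and 4.39 FPKM in BMDM and 1.07, 2.83 and 2.86 FPKM in BSM. The groups did not overlap, but the difference was not called (log2 fold change 0.74, limma adjusted p = 0.0710, and -0.07 after quantile normalization). The ratio of Ifngr1 to Ifngr2 was between 6.27 and 10.8 in BMDM and between 12.4 and 40.9 in BSM, without overlap. The mean ratio differed by -1.32 on the log2 scale (exact permutation p = 0.1, adjusted 0.233), and the value of 40.9 was that of BSM replicate 1.

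The receptor chains of IL-10 and IL-4, cytokines known to dampen or redirect myeloid activation, had the lowest mean levels of the 10 genes in BMDM, while in BSM Csf2rb was lower than each of them. Il10ra, the chain that binds IL-10, on chromosome 9 from 45061922 to 45077229, was at 1.39, 1.56 and 2.27 FPKM in BMDM and at 1.07, 4.03 and 3.62 FPKM in BSM. BSM replicate 1 was the lowest of the 6 libraries and the other 2 BSM libraries the highest. The log2 fold change was -0.42 with all libraries (95% interval -1.31 to 0.46, limma adjusted p = 0.371) and -0.83 without BSM replicate 1 (limma adjusted p = 0.0164). After quantile normalization of all 6 libraries it was -1.31 (limma adjusted p = 0.00762).

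Il10rb, the second chain of the IL-10 receptor, which other cytokines share, lies on chromosome 16 from 91406409 to 91426074. It was at 2.56, 1.13 and 1.46 FPKM in BMDM and at 1.73, 2.50 and 2.12 FPKM in BSM, and the groups overlapped. In the ALEXA-Seq values, where it was too low for the main test, the BSM libraries, between 20.96 and 23.1, all lay above the BMDM libraries, between 9.33 and 19.5. With the minimum lowered to 1 FPKM its log2 fold change was -0.23 (limma adjusted p = 0.508). An annotated transcript of Gm21970 on the same strand shares 30.9% of the Il10rb transcript, so part of its value may come from either. The ratio of Il10ra to Il10rb lay between 0.559 and 1.52 in BMDM and between 0.640 and 1.68 in BSM (exact permutation p = 0.5), with the lowest value of each cell type in replicate 1.

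Il4ra, the chain shared by the receptors of IL-4 and IL-13, on chromosome 7 from 132695785 to 132722982, was at 1.99, 1.05 and 2.96 FPKM in BMDM and at 1.14, 4.70 and 4.41 FPKM in BSM. As for Il10ra, BSM replicate 1 was far below the other BSM libraries. The log2 fold change was -0.48 (95% interval -1.50 to 0.54, limma adjusted p = 0.380), -0.94 without BSM replicate 1 (limma adjusted p = 0.0343) and -1.34 after quantile normalization (limma adjusted p = 0.0196). In the ALEXA-Seq values, where Il4ra was too low for the main test, every BSM library was above every BMDM library.

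The second chain of the IL-4 receptor can be Il2rg, the common gamma chain, or Il13ra1. Il2rg was at 11.0, 10.9 and 14.1 FPKM in BMDM and at 0.0349, 1.15 and 0.684 FPKM in BSM (log2 fold change 3.05, limma adjusted p = 0.000189). Il13ra1 was at 6.76, 4.31 and 5.97 FPKM in BMDM and at 2.42, 6.80 and 7.86 FPKM in BSM, and the difference was not called (log2 fold change 0.09, limma adjusted p = 0.852). Thus Il2rg exceeded Il4ra in each BMDM library, where the ratio of Il4ra to Il2rg was between 0.105 and 0.216, and Il4ra exceeded Il2rg in each BSM library, with ratios between 3.84 and 9.21. The mean ratio differed by -5.18 on the log2 scale with a pseudocount of 0.1, and by -3.53 with a pseudocount of 1 (exact permutation p = 0.1 for both, the smallest possible). The ratio of Il4ra to Il13ra1 overlapped between the cell types, with a difference of -0.76 (exact permutation p = 0.2).

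**Figure D2:**
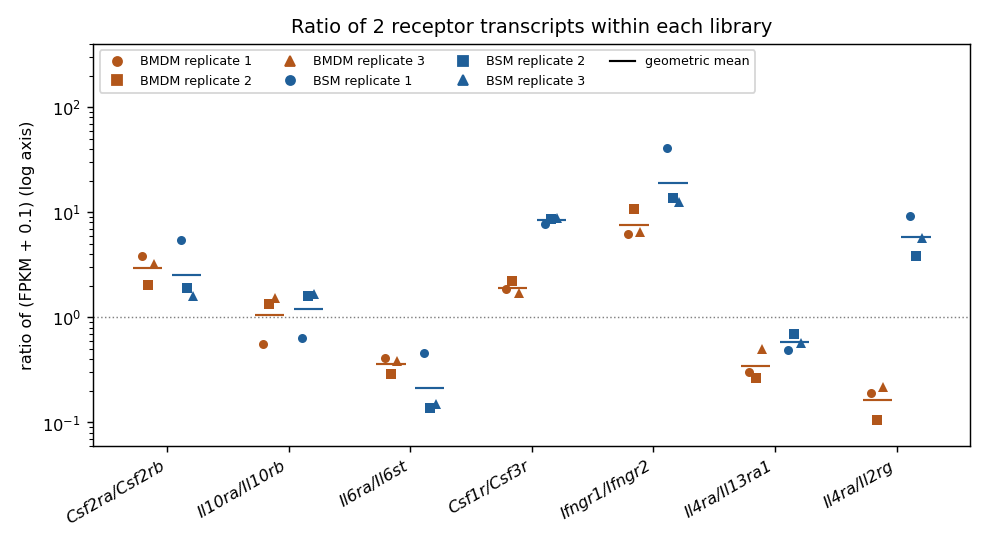
Ratio of 2 receptor transcripts within each library, as (FPKM + 0.1) of the first over that of the second (log axis), for the 3 BMDM (orange) and 3 BSM (blue) libraries, with bars at the geometric means. The ratios Csf1r/Csf3r, Ifngr1/Ifngr2 and Il4ra/Il2rg did not overlap between the cell types, and the other 4 did.

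By mean FPKM the order in BMDM was Ifngr1, Il6st, Csf1r, Csf2ra, Csf3r, Il6ra, Csf2rb, Il4ra, Il10ra and Il10rb. The ranges of Ifngr1 and Il6st overlapped, as did those of Csf3r and Il6ra and of each neighbouring pair from Il4ra to Il10rb. In BSM the order was Csf1r, Ifngr1, Il6st, Csf3r, Il6ra, Il4ra, Csf2ra, Il10ra, Il10rb and Csf2rb. Here the ranges of Ifngr1 and Il6st, of Csf3r and Il6ra, and of each neighbouring pair from Il4ra to Il10rb overlapped. Csf1r moved from the third place in BMDM to the first in BSM, without overlap with the next gene in either, and Csf2rb from the seventh to the last.

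A rank within a library does not move with its scaling. Among the 6364 tested genes, Csf3r ranked between the 63.9 and 73.7 percentile in the BMDM libraries and between the 85.7 and 91.5 percentile in the BSM libraries. Il6st was between 86.7 and 89.1 in BMDM and between 95.9 and 96.6 in BSM, and Ifngr1 between 89.7 and 93.5 in BMDM and between 96.2 and 96.9 in BSM. Il10ra was between 10.7 and 16.8 in BMDM and between 32.4 and 56.7 in BSM, and Il4ra between 8.11 and 23.9 in BMDM and between 33.4 and 62.1 in BSM. With Csf1r, these were 6 of 9 tested receptor genes that ranked higher in every BSM library, against 26.8% of all genes tested. A rank depends on the other genes of the library, and BSM replicate 1 had the lowest FPKM of Il10ra of all libraries but ranked it above every BMDM library. Csf2ra and Csf2rb ranked higher in every BMDM library, against 29.1% of all genes tested, with Csf2ra between 73.9 and 83.99 in BMDM and between 38.4 and 61.5 in BSM.

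Accordingly the count of receptor genes called in favor of BSM depended on the scaling. After quantile normalization 2 of 9 were called in favor of BMDM and 6 of 9 in favor of BSM, against 21.7% and 19.3% of all genes tested, and the median log2 fold change of the 9 genes was -1.25. Only Il6ra, at -0.61 (limma adjusted p = 0.353), was not called in that setting. Of the genes called, Csf2rb reached the FPKM minimum only in BMDM libraries, and Il10ra and Il4ra only in BSM libraries. Quantile normalization of the libraries other than BSM replicate 1 also called 8 of 9, against 50.5% of all genes, and in the ALEXA-Seq values it called 7 of 8, against 43.8%. Without BSM replicate 1 and without scaling, 3 were called in favor of BMDM and 4 in favor of BSM, against 50.2% and 11.6% of all genes. The directions of Csf1r, Csf2ra, Csf2rb and Il6st were the same under every alternative.

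The ALEXA-Seq values come from the same libraries and are a second quantification, not a second set of samples. Of the 8 receptor genes tested there, 2 were called in favor of BMDM and 2 in favor of BSM, against 37.1% and 10.9% of all genes tested, and these were Csf2ra, Csf2rb, Csf1r and Il6st again. The log2 fold changes were -2.82 for Csf1r, 2.22 for Csf2ra and 1.96 for Csf2rb, with limma adjusted p-values of 0.000174, 0.000644 and 0.00269. That of Il6ra was 0.00 (limma adjusted p = 0.998), with BSM replicate 1 at 521 and the other BSM libraries at 118 and 113.

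**Figure D3:**
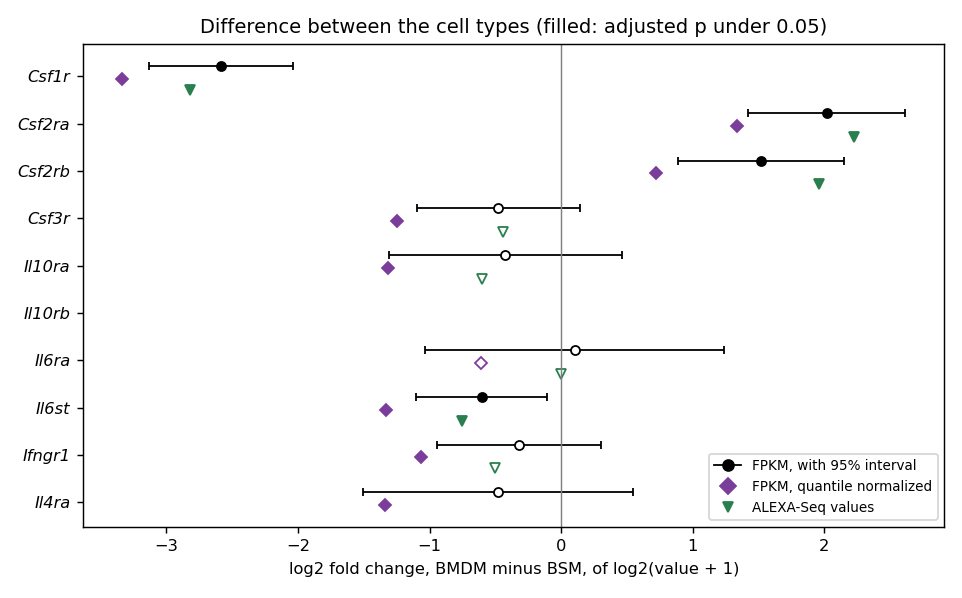
Log2 fold change (BMDM minus BSM, on log2(value + 1)) of the receptor genes, from FPKM with the 95% interval of limma (black), from quantile normalized FPKM (purple) and from ALEXA-Seq values (green). Filled symbols had an adjusted p-value under 0.05. Quantile normalization moved every tested gene toward BSM, for example Csf3r from -0.48 to -1.25, and Il10rb was not tested.

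The ligands of these receptors were measured in the same cells. Of 10 ligand genes, 8 (Il34, Csf2, Csf3, Il3, Il10, Ifng, Il4 and Il13) were listed at 0 FPKM in all 6 libraries, and Il6 was above 0 only in BSM replicates 2 and 3, at 0.149 and 0.332. Csf1, a ligand of CSF1R, was at 0.413, 0.0450 and 2.20 FPKM in BMDM and at 16.0, 0.802 and 0.846 FPKM in BSM. The single high value was that of BSM replicate 1, and the difference was not called (log2 fold change -1.19, limma adjusted p = 0.276, and -0.12 without that library).

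Among 17 partner chains and related receptors, 10 were tested, of which 2 were called in favor of BMDM and 3 in favor of BSM, with a median log2 fold change of -0.21, against 45.3%, 9.22% and a median of 0.81 for all genes tested. Of the genes called, Il2rg reached the FPKM minimum only in BMDM libraries, and Il21r, Il7r and Lifr only in BSM libraries. These counts by direction are therefore not independent of the filter. Besides Il2rg, Ifnar2, a chain of the type I interferon receptor, was called higher in BMDM (log2 fold change 0.60, limma adjusted p = 0.0400), but its direction turned under 3 scalings, and the call was lost when any library other than BSM replicate 1 was left out. In BSM, Il21r was at 14.0, 12.8 and 11.0 FPKM against 0.199, 1.67 and 0.734 in BMDM (log2 fold change -2.93, limma adjusted p = 0.000258), and Il7r was at 7.75, 5.15 and 5.21 FPKM against 0.0105, 0.114 and 0.367 (log2 fold change -2.59, limma adjusted p = 0.000229). Both encode chains that signal together with the common gamma chain, whose transcript was low in the same BSM libraries. Lifr, which pairs with gp130 to bind LIF, was at 6.60, 2.74 and 2.61 FPKM in BSM and at 1.02, 1.16 and 0.957 in BMDM (log2 fold change -1.20, limma adjusted p = 0.0191, and -1.87 after quantile normalization). The Lifr call was lost without any one BMDM library, at limma adjusted p-values between 0.0515 and 0.0695, and with no minimum (0.0579). Osmr, which pairs with gp130 for oncostatin M, was listed at 0 in all 6 libraries. Il3ra and Il5ra, the alpha chains that join the common beta chain for IL-3 and IL-5, were at most at 0.0725 and 0.256 FPKM.

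Downstream of the receptors, 5 of the 7 JAK and STAT genes tested were called in favor of BMDM and 0 in favor of BSM, against 45.3% and 9.22% of all genes tested, with a median log2 fold change of 1.30 against 0.81 for all genes tested. Of the genes called, Stat5a reached the FPKM minimum only in BMDM libraries, so this count is not independent of the filter. Stat6, which IL-4 activates, was at 17.6, 16.6 and 12.6 FPKM in BMDM and at 1.12, 5.80 and 5.55 FPKM in BSM (log2 fold change 1.85, limma adjusted p = 0.0106). Jak2, which docks on the GM-CSF and interferon-gamma receptors, had a log2 fold change of 1.72 (limma adjusted p = 0.00327). After quantile normalization 1 of the 7, Jak2, was called, at 0.92 (limma adjusted p = 0.0214), against 21.7% of all genes in favor of BMDM. After scaling to the same sum Jak2 was at 0.60 and not called (limma adjusted p = 0.182).

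Of 6 tested genes of the list of feedback inhibitors and phosphatases, 4 were called in favor of BMDM and 0 in favor of BSM, beside the same 45.3% and 9.22%. The 4 were Ptpn6, Cbl, Ptpn2 and Ptpn11, of which Ptpn11 encodes SHP-2, a phosphatase known largely as a positive effector of such receptors. Ptpn11 reached the FPKM minimum only in BMDM libraries, so this count too is not independent of the filter. Ptpn6, the phosphatase SHP-1, had the largest difference, at 17.1, 29.4 and 18.9 FPKM in BMDM and 2.66, 6.84 and 5.96 FPKM in BSM (log2 fold change 1.93, limma adjusted p = 0.00314). It was the 1 gene of this list that stayed called after quantile normalization, at 1.15 (limma adjusted p = 0.0231), while scaling to the same sum ended its call, at 0.74 (limma adjusted p = 0.127). Cbl, a ubiquitin ligase that downregulates CSF1R, was at 46.2, 50.3 and 44.4 FPKM in BMDM and at 20.4, 16.6 and 16.3 FPKM in BSM (log2 fold change 1.36, limma adjusted p = 0.00144). After quantile normalization Cbl was at 0.57 (limma adjusted p = 0.0539), and after scaling to the same sum at 0.09 (limma adjusted p = 0.758). Socs3, the feedback inhibitor that binds gp130 and the G-CSF receptor, was too low for the main test. It was at no more than 0.0219 FPKM in BMDM and between 0.700 and 0.925 FPKM in BSM. With no minimum it was called higher in BSM (log2 fold change -0.82, limma adjusted p = 0.00642), as were 712 of the 21167 genes tested in that setting.

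**Figure D4:**
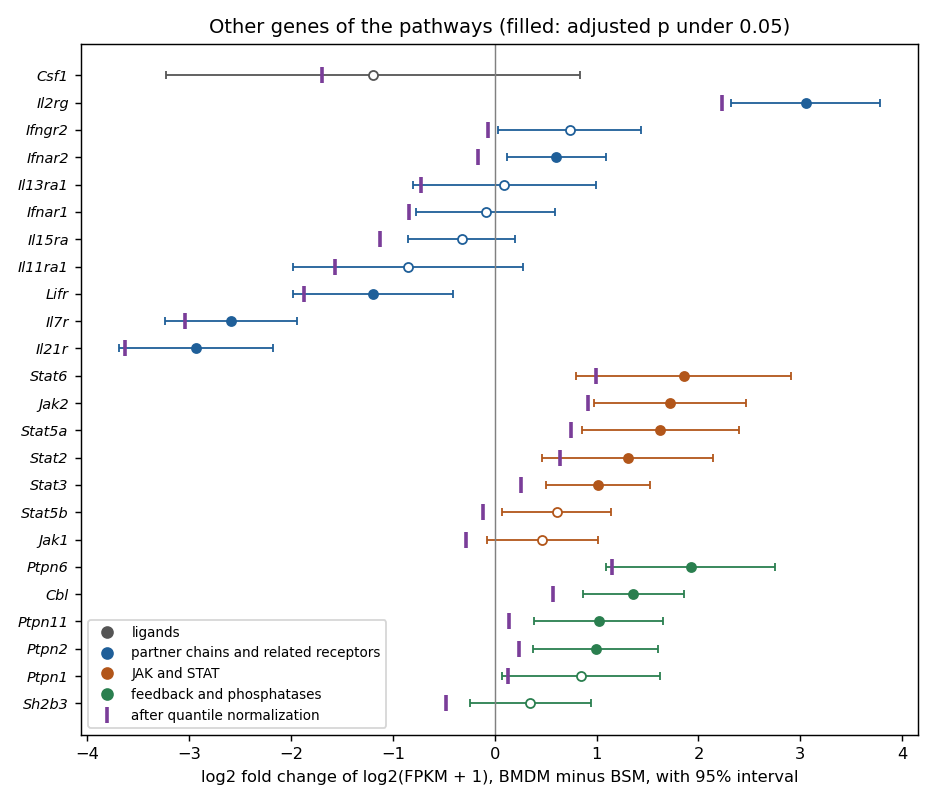
Log2 fold change of log2(FPKM + 1), BMDM minus BSM, with the 95% interval of limma, for the 24 of 47 ligand, partner chain, JAK and STAT, and feedback genes that reached the FPKM minimum. Filled points had an adjusted p-value under 0.05, and purple bars give the value after quantile normalization, which lay to the left of the point for every gene, and 8 genes were called in place of 14.

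Across all 47 pathway genes, 11 of the 24 tested were called in favor of BMDM and 3 in favor of BSM, beside the 45.3% and 9.22% of all genes. These counts include the genes named above that passed the filter only through the cell type where they were higher. In bulk libraries of sorted cells, fewer cells of a type in the sort and less of a transcript in each cell cannot be told apart. Erythroid markers summed to between 6.77 and 38.8 FPKM in BMDM and to at most 0.171 in BSM, and their part in any difference was not tested. Markers of lymphocytes, neurons, astrocytes, endothelial cells and perivascular macrophages each summed to at most 4.07 FPKM in any library, and those of oligodendrocytes to between 5.58 and 8.58 in BMDM and between 0.826 and 1.16 in BSM.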

How the data were processed

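RNA from 3 pools of BMDM and 3 pools of BSM was amplified with the Ovation RNA-Seq method and sequenced. The submitters' processing notes list CASAVA 1.7.0, TopHat 1.3.1, Bowtie 0.12.7, Cufflinks 1.0.3 and mm9. The authors deposited FPKM per gene from Cufflinks, scaled by transcript length and mapped reads, and an expression signal per gene from ALEXA-Seq, whose normalization is not given in the sources used here. Neither table holds read counts, so the depth behind each value is unknown and no count test was used. All columns of values were used.

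Groups came from the sample labels. The 6364 genes that reached 3 FPKM in 1 or more libraries were compared with limma 3.58.1 in R 4.3.3 (empirical Bayes moderation with a trend of the variance on the mean) on log2(FPKM + 1), without further scaling, and as many genes with the highest ALEXA-Seq values in the same way. A fold change on this scale understates the change of low genes. P-values were adjusted by Benjamini-Hochberg over all genes tested. Ratios within a library took FPKM + 0.1 and a two-sided exact permutation test. Tables were handled in Python 3.11.15 with pandas 2.3.3, numpy 2.4.6 and scipy 1.17.1. The fit was tested on simulated data. Starts in the FPKM table are counted from 0, since 7536 of 17760 genes then have the span of GENCODE M21 against 265 otherwise, and are printed counted from 1. Copies were blastn 2.17.0 matches of at least 100 bases at 95% identity to GENCODE M21 transcripts of other genes, a later build than that of the values, used by gene name only.

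All 10 receptor genes are named. Of the pathway genes, those are named that bind or pair with these receptors or have the largest fold change of their list in a direction. The receptor genes and all lists were chosen with earlier results of these data known. Alternatives were an FPKM minimum of 1 or none, a pseudocount of 0.1, quantile, upper quartile and same-sum scaling, moderation without the trend, the replicate number as a block, each library left out in turn and, added after the data were seen, Csf2rb summed with Csf2rb2 and quantile normalization without BSM replicate 1. Microarray data were not analysed here, and 1 gene of the JAK and STAT list is not reported here.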

Additional observations from a re-analysis of the deposited data

How the results depend on the processing

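The count of 4 receptor genes called by FPKM was 8 after quantile normalization and also 8 when BSM replicate 1 was left out in addition, and by ALEXA-Seq 4 became 7 in both settings. Leaving out each library in turn gave between 3 and 7 receptor genes by FPKM, 7 being without BSM replicate 1, and between 3 and 6 by ALEXA-Seq. The 14 pathway genes called became 8 after quantile normalization, 9 after upper quartile or same-sum scaling, and between 9 (without BMDM replicate 3) and 16 (without BSM replicate 1) with each library left out. Beside these, 3470 of all 6364 genes tested were called by FPKM. With each library left out this was between 2498 (without BMDM replicate 3) and 3932 (without BSM replicate 1). By ALEXA-Seq 3050 of all genes were called, and between 1971 (without BMDM replicate 3) and 3984 (without BSM replicate 1) with each library left out. The FPKM split of 2883 higher in BMDM and 587 higher in BSM became 1378 and 1227 after quantile normalization, 1380 and 1051 after upper quartile scaling and 973 and 1582 after scaling to the same sum. By construction such scalings take out a shift that the genes share. The log2 ratio difference of Csf1r to Csf3r was -2.37 by ALEXA-Seq against -2.13, and that of Il4ra to Il2rg was -5.84 by ALEXA-Seq and -3.53 with a pseudocount of 1, against -5.18.

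Of the 24 pathway genes tested by FPKM, 10 turned in direction under at least 1 alternative, 3 of which were called, and of the 9 receptor genes 1 did, Il6ra, which was not called. Where either value was called, the turned values were as follows. By FPKM, Ifnar2 was at -0.16 after quantile normalization, -0.24 after upper quartile scaling, -0.70 after scaling to the same sum and -0.23 with quantile normalization without BSM replicate 1, and Il13ra1 was at -1.07 in the last setting. After scaling to the same sum Jak1 was at -0.77, Stat3 at -0.19 and Ptpn2 at -0.12 by FPKM, and Ifnar2 at -0.77, Jak1 at -0.87 and Stat3 at -0.20 by ALEXA-Seq. The cause was not tested.

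Libraries with the same replicate number share the sex of the mice, but the sources used here do not say that they came from the same animals, and their deviations from the group means correlated at -0.02, -0.01 and 0.13 by FPKM, so they were not taken as pairs. With the replicate number as a block, 3471 genes were called by FPKM and 2885 by ALEXA-Seq, and 3 receptor genes by FPKM, Il6st having an adjusted p of 0.0805 in limma.

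The precision is limited by 3 libraries in each group and by the unknown number of reads, which matters most for Il10ra, Il10rb, Il4ra and Csf2rb, the receptor genes near or below the FPKM minimum.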

Other observations

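Several pathway genes below the FPKM minimum nevertheless had no overlap between the cell types, of which Flt3, Tyk2 and Stat4 are described here. Kit, Il3ra, Il2rb and Cish were also higher in every BMDM library, and Socs3 was higher in every BSM library. Il3ra, Il2rb and Cish were very low, with at most 0.0725, 0.0554 and 0.0353 FPKM in any library. For Cish the lowest BMDM value was 0.004223 and the highest BSM value 0.004216 FPKM, and by ALEXA-Seq its groups overlapped. Among all genes tested 66.8% had no overlap, and the share among genes below the minimum was not computed. Flt3, a growth factor receptor of early myeloid and dendritic cell progenitors, was at 0.686, 1.90 and 1.80 FPKM in BMDM and at 0.139, 0.0552 and 0.0496 FPKM in BSM. Tyk2, a kinase that docks on IL10RB and on the type I interferon receptor, was at 0.674, 1.03 and 0.739 FPKM in BMDM and at 0.152, 0.175 and 0.200 FPKM in BSM. Stat4, which type I interferon and IL-12 can activate, was at 0.775, 0.520 and 0.877 FPKM in BMDM and at most at 0.0294 in BSM. Among the 47 pathway genes, 23 were below the minimum and 9 of these were listed at 0 in every library. Flt3, Tyk2 and Stat4 were chosen after their values were seen and were not in the main test. The 3 genes were picked for their lack of overlap, so the calls that follow are not separate evidence of a difference. With the minimum lowered to 1 FPKM, Flt3 (limma adjusted p = 0.00992) and Tyk2 (limma adjusted p = 0.0370) were called in favor of BMDM. In that setting 3585 of the 9637 genes tested were called higher in BMDM. Both genes passed that minimum only through BMDM libraries, Tyk2 through BMDM replicate 2 alone. With no minimum Flt3, Tyk2 and Stat4 were called, at limma adjusted p-values of 0.0357, 0.0409 and 0.00962. There, 3164 of the 21167 genes tested were called higher in BMDM and 712 higher in BSM. Both settings were without further scaling.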
